A study of Mus musculus with 10 samples.

Results

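Hif1a, which encodes the oxygen-regulated subunit of hypoxia-inducible factor 1 (HIF-1), and 9 genes that HIF is known to induce were examined in islets of βFIT2KO and floxed control mice. They were taken from the deposited table by gene symbol (Hif1a, Egln1, Egln3, Vegfa, Bnip3, Adm, Ankrd37, Slc2a1, Pdk1 and Ndrg1), 10 of 47340 genes. RNASeq was performed on islets of 5 KO and 5 floxed (FL) mice, 1 library per mouse, all 12 wk old, male and fed chow. KO mice carried loxP-flanked Fitm2, which encodes FIT2, a membrane protein of the endoplasmic reticulum with a role in forming lipid droplets, together with a Cre transgene driven by the rat insulin promoter, so that deletion was directed to β cells. FL mice were littermates with the floxed alleles and no Cre named, although 1 of their labels calls them wild type. The effects of Cre and of Fitm2 loss cannot be told apart in this design. The islets were cultured overnight in complete medium before RNA was taken, and the oxygen level during culture was not given in the sources used here.

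HIF is a dimer of an α subunit (HIF-1α from Hif1a, HIF-2α from Epas1) and a β subunit (ARNT). With oxygen present, prolyl hydroxylases of the EGLN family mark the α subunit for ubiquitination by the VHL complex and degradation, so its abundance is set mainly at the protein level. When oxygen is short the dimer binds hypoxia response elements and raises genes of glucose uptake, glycolysis, mitochondrial restraint and blood vessel growth. Islets are densely vascularised, and β cells depend on mitochondrial oxidation of glucose for insulin secretion.

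The values are FPKM, fragments scaled by transcript length and by a measure of library size. How that measure was set was not examined. Fitm2 averaged 23.3 ± 9.86 FPKM over FL islets and 6.95 ± 2.36 FPKM over KO islets (SD, n = 5), with no KO library as high as an FL library. The insulin genes Ins1 and Ins2, Iapp and Gcg were listed at 0 in every library, so the islet identity was read from other markers such as Slc2a2, Ucn3 and Sst, all of which were present. The libraries' FPKM summed to 646233 to 675470 in FL and 627084 to 653292 in KO. FPKM do not give read numbers. From the spacing of low values, the depth relative to FL replicate 1 was 1.39 to 2.38 in the other FL libraries and 1.51 to 2.04 in KO, so the most shallow library was an FL library.

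KO replicate 3 stood apart from the other KO libraries for these genes, and the results on them, on the other lists and on most of the genes named are therefore given with and without it. Its Fitm2 was 7.75 FPKM, within the range of the other 4 KO libraries (4.30 to 9.13 FPKM), and its relative depth was 1.51. Nothing in its labels sets it apart. It was set apart for its high values in most of these genes, so the results without it are no separate evidence of a fall.

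The hypoxia response element has a short core, ACGTG or GCGTG, which was looked for on both strands in the 250 bases before each annotated start. Sequences and starts are from RefSeq (GRCm38.p6). Promoters were found for 9 of the 10 genes, not for Ndrg1. Vegfa and Pdk1 had a pair of starts each, giving 11 promoters. At least 1 match was present in 9 of 11 promoters, which covered all 9 genes, Vegfa only through a start inside the gene (the promoter at its first start had 0), against 12679 of 32851 promoters in the whole table (38.6%). The 250 bases before that inner Vegfa start themselves lie inside the gene, so its matches are not upstream of Vegfa. By the gene coordinates given below, the 250 bases used for Hif1a, Ankrd37 and the second start of Pdk1 lie inside the gene too. The starts used for Egln1, Bnip3 and Slc2a1 are also inside the gene, with only the bases nearest to them within it. The last bases of the Bnip3 stretch shown are among these. ACGTG itself was present in 7 of the 9 genes (16.6% of all promoters), and 7 genes had 2 or more matches (16.7% of all promoters). The palindrome CACGTG, also known as an E-box, counts once on each strand. A match to these letters is not evidence of binding, and a promoter without one says only that the letters are not in this window. The promoters of Bnip3, Ankrd37 and Slc2a1 are shown because these genes fell most in KO islets, and that of Hif1a because its transcript did not pass the test although its promoter holds the same letters. Each is written 5′ to 3′ on the gene's own strand, with matches in capitals, and bases annotated as 5′ UTR are left off.
Bnip3, chr7:138909507-138909756, minus strand: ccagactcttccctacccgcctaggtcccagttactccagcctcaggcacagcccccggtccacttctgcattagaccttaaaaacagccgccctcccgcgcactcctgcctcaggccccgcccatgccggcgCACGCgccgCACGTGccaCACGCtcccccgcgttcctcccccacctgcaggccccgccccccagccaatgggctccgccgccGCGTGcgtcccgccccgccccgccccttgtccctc
Ankrd37, chr8:45999868-46000100, minus strand: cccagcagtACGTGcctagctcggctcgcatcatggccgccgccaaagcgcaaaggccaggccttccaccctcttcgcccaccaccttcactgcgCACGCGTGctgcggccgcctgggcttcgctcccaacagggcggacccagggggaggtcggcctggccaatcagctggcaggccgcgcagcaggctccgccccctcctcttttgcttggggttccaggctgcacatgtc
Slc2a1, chr4:119108495-119108710, plus strand: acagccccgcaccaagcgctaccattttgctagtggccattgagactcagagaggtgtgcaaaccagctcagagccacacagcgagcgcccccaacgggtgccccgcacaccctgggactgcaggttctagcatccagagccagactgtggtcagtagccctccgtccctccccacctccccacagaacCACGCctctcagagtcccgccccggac
Hif1a, chr12:73907617-73907866, plus strand: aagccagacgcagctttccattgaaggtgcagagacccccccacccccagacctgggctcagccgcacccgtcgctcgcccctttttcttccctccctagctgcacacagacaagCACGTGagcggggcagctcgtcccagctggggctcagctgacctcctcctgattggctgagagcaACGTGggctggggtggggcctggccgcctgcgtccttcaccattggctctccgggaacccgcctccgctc
Bnip3 had 5 matches, the most of the 9 genes, at 117, 108, 107, 99 and 35 bases before the start. Ankrd37 had 4 matches, of which the nearest, at 6 bases, lies in the part left off. Slc2a1 had 2, at 61 and 36 bases, the nearer one reaching into the part left off and so not in capitals. Hif1a had 3, at 135, 134 and 70 bases, so the presence of these letters did not separate the genes that fell from Hif1a.

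**Figure D1:**
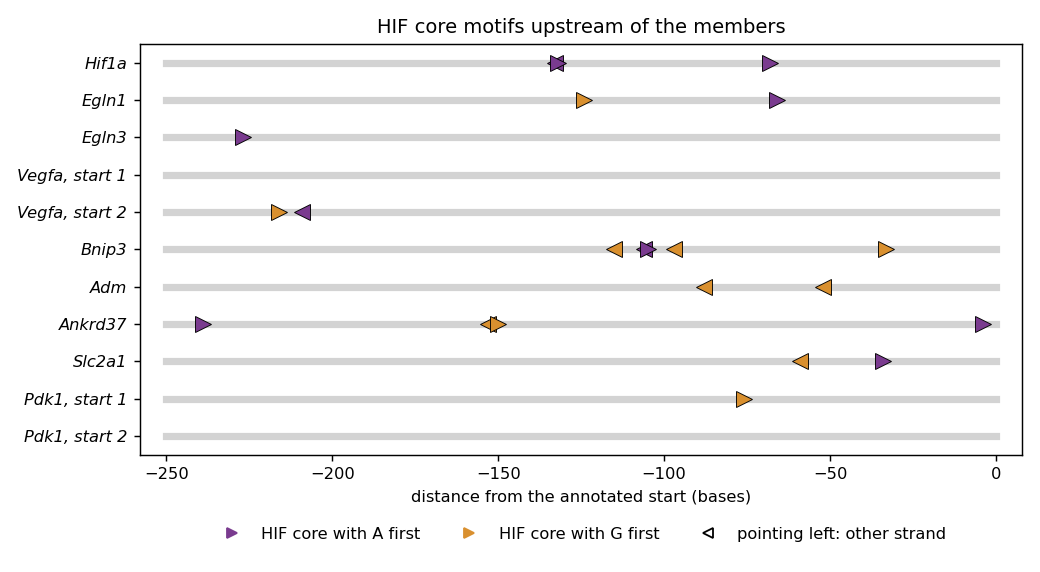
Matches to the HIF core (purple, ACGTG; orange, GCGTG) in the 250 bases before each annotated start, with the x axis in bases from that start and arrows pointing left for the other strand. Matches lie in 9 of 11 promoters, and Hif1a has 3 of them.

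Of the 10 genes, 8 averaged 1 FPKM or more in a group and were tested with limma on log2(FPKM + 1). In KO islets 7 of the 8 were lower at an adjusted p of 0.05 and 0 were higher (also 0 without adjustment and by the exact Wilcoxon test), while Hif1a did not pass. Over all 13065 tested genes, 16.5% were lower and 9.05% higher. The exact Wilcoxon test, which loses each gene whose groups overlap, called 2 lower, Vegfa and Ndrg1, beside 12.5% of all tested genes. With a change of at least 1.5-fold 3 were lower, Bnip3, Ankrd37 and Slc2a1 (290 of all tested genes). At an adjusted p of 0.01 a different 3 were lower, Vegfa, Slc2a1 and Ndrg1 (1044 of all tested genes), so only Slc2a1 passed both. Without KO replicate 3 limma again called 7 lower and 0 higher at 0.05, against 16.4% and 8.65% of all genes. After median-ratio rescaling, which moved the lower share of all calls from 64.5% to 52.2%, 12.9% of genes were lower and 11.8% higher, and 7 of the 8 were still lower. The median log2 fold change of the 8 was −0.50, against −0.06 over all tested genes. As these are bulk islets, fewer cells of a type and less RNA per cell cannot be told apart.

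**Figure D2:**
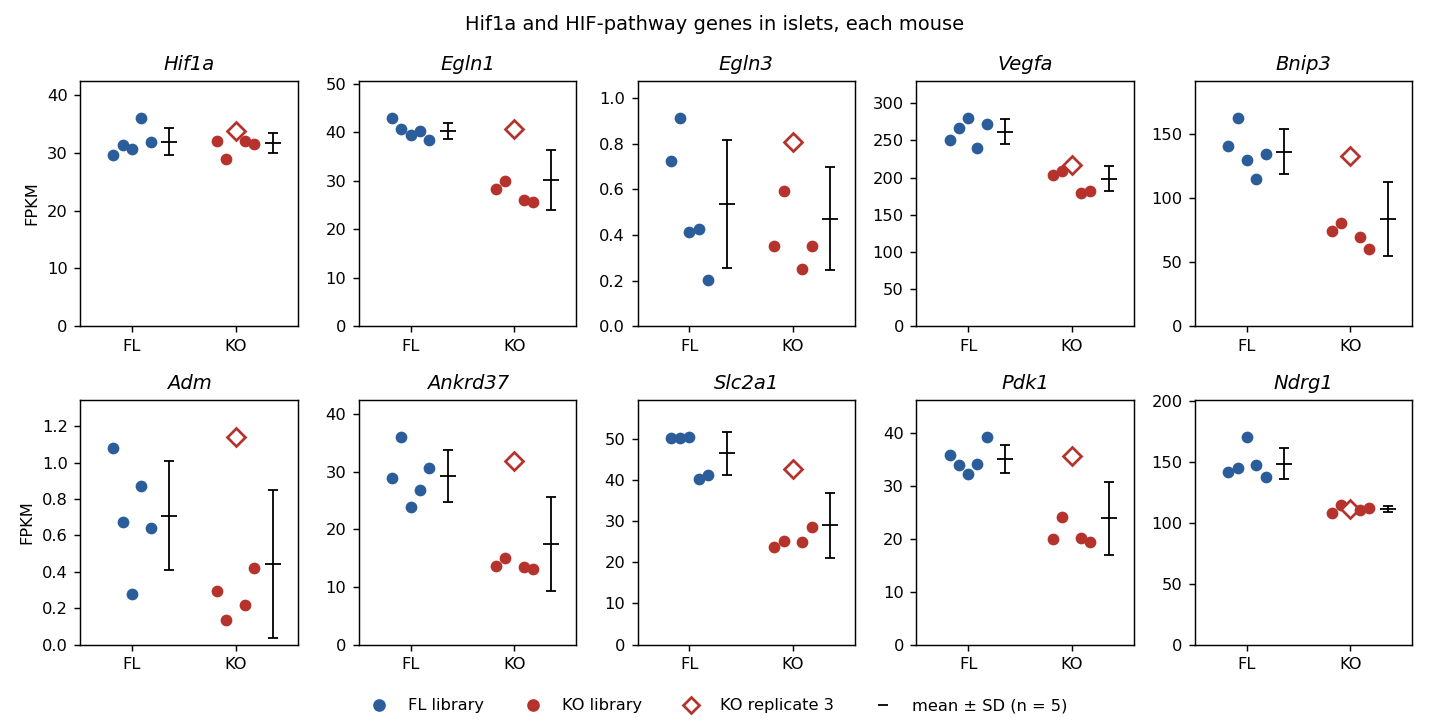
FPKM of each gene in every library (y axis from 0), FL in blue and KO in red, with the mean ± SD of each group in black. KO replicate 3, the open diamond, lies among the FL libraries for Egln1, Bnip3, Ankrd37, Slc2a1 and Pdk1, and with the other KO libraries for Ndrg1.

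Hif1a is on chromosome 12 (chr12:73901375-73947530, plus strand). It was at 29.7, 31.4, 30.8, 36.01 and 32.0 FPKM in FL replicates 1 to 5, against 32.1, 29.0, 33.9, 32.1 and 31.6 FPKM in the KO libraries in the same order of number. The groups overlapped throughout. The means were 32.0 ± 2.40 FPKM for FL and 31.7 ± 1.76 FPKM for KO (SD, n = 5), and limma put the log2 fold change at −0.01 ± 0.06 (SE; adjusted p = 0.917), and the sign of this value turned with the scaling, to 0.037 after median-ratio rescaling. This is the transcript, and the HIF-1α protein, through which oxygen acts, was not measured in these files. The 3 genes whose pattern over the 10 libraries lay nearest to that of Hif1a were Sdhaf2, Tbc1d12 and Fam160b1, with root mean square distances of 0.0391, 0.0394 and 0.0395 between centred log2(FPKM + 1) values. These small distances were found among genes that, as Hif1a, varied little: the median distance from Hif1a over all tested genes was 0.166.

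Of the prolyl hydroxylases, Egln1 encodes PHD2, the main oxygen sensor of the pathway and itself a HIF target. Egln1 (chr8:124908587-124949324, minus strand) was at 42.8, 40.6, 39.4, 40.3 and 38.4 FPKM in the FL libraries, against 28.2, 30.0, 40.7, 26.1 and 25.5 FPKM in the KO libraries, here and from now on in the order of their numbers. The KO libraries, all but replicate 3, lay below every FL library. On the log2 scale KO minus FL was −0.43 ± 0.11 (SE; adjusted p = 0.015, limma), from 40.3 ± 1.64 to 30.1 ± 6.17 FPKM (SD, n = 5), and without KO replicate 3 it was −0.54 (adjusted p = 0.000167, limma). Egln3 encodes PHD3, another HIF-induced hydroxylase. Egln3 (chr12:54178981-54203860, minus strand) was at 0.724, 0.912, 0.415, 0.428 and 0.200 FPKM in the FL libraries, against 0.350, 0.594, 0.808, 0.251 and 0.352 FPKM in the KO libraries. The groups overlapped and the difference did not pass an exact two-sided permutation test (p = 0.698, n = 5 and 5). The read numbers behind such low FPKM are unknown.

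Vegfa encodes the main growth factor for islet capillaries, and β cells are a major source of it. Vegfa (chr17:46016993-46032369, minus strand) was the highest of the 10 genes, at 250.7, 267, 279.7, 239 and 272 FPKM in the FL libraries, against 204, 209, 217, 179 and 182 FPKM in the KO libraries. Every KO library lay below every FL library, as in 12.5% of all tested genes. It fell from 262 ± 16.5 to 198 ± 16.9 FPKM (SD, n = 5), and limma put the log2 fold change at −0.40 ± 0.07 (SE; adjusted p = 0.0017). KO replicate 3 was the highest KO library here too, at 217 FPKM, yet below the lowest FL library, and leaving it out put the log2 fold change at −0.43 (adjusted p = 0.0016, limma). Adm encodes adrenomedullin, a vasodilator peptide. Adm (chr7:110627661-110629820, plus strand) was at 1.08, 0.675, 0.280, 0.871 and 0.644 FPKM in the FL libraries, against 0.297, 0.134, 1.14, 0.218 and 0.421 FPKM in the KO libraries. The highest of all 10 libraries was KO replicate 3. The difference did not pass with all libraries (exact two-sided permutation p = 0.214, n = 5 and 5). Without KO replicate 3 it did, with a log2 difference of −0.42 (exact permutation p = 0.0397, n = 5 and 4), and the FL replicate 3 value of 0.280 FPKM still lay among the KO values. The library left out was the one most opposed to a fall, so this pass is no separate evidence of a fall.

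Slc2a1 and Pdk1 act on glucose. Slc2a1 encodes the glucose transporter GLUT1, which is widely expressed and distinct from GLUT2, the main transporter of mouse β cells. Slc2a1 (chr4:119108711-119137983, plus strand) was at 50.1, 50.3, 50.5, 40.3 and 41.2 FPKM in the FL libraries, against 23.7, 25.1, 42.7, 25.0 and 28.5 FPKM in the KO libraries. KO replicate 3 was above FL replicates 4 and 5, and the other 4 KO libraries were below every FL library. Slc2a1 fell from 46.5 ± 5.25 to 29.0 ± 7.88 FPKM (SD, n = 5), and limma put the log2 fold change at −0.69 ± 0.15 (SE; adjusted p = 0.0065). Without KO replicate 3 it was −0.83 (adjusted p = 0.000155, limma). Pdk1 encodes a kinase that inhibits pyruvate dehydrogenase and so holds pyruvate back from mitochondrial oxidation. Pdk1 (chr2:71873224-71903858, plus strand) was at 35.9, 34.0, 32.3, 34.2 and 39.3 FPKM in the FL libraries, against 20.0, 24.1, 35.8, 20.3 and 19.3 FPKM in the KO libraries. KO replicate 3 was again within the FL range and the others were below it. The means were 35.1 ± 2.65 FPKM for FL and 23.9 ± 6.89 FPKM for KO (SD, n = 5). On the log2 scale KO minus FL was −0.57 ± 0.15 (SE; adjusted p = 0.0157, limma), and without KO replicate 3 it was −0.72 (adjusted p = 0.000153, limma).

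Bnip3 encodes a protein of the outer mitochondrial membrane that acts as a receptor for mitophagy. Bnip3 (chr7:138890836-138909519, minus strand) was at 140.4, 162, 129, 115 and 134 FPKM in the FL libraries, against 74.2, 79.9, 133, 69.6 and 60.2 FPKM in the KO libraries. KO replicate 3, at 133 FPKM, was within the FL range, and the next KO library was at 79.9 FPKM, below the lowest FL library. On the log2 scale KO minus FL was −0.75 ± 0.18 (SE; adjusted p = 0.0128, limma), from 136 ± 17.3 to 83.4 ± 28.6 FPKM (SD, n = 5). Without KO replicate 3 this log2 difference was −0.93 (adjusted p = 0.000243, limma). An annotated antisense transcript shares 504 exon bases with Bnip3. The use of strand in counting was not given in the sources used here, so reads of such partners cannot be told apart. Hif1a shares 148 exon bases with Gm49321, a protein-coding gene on the same strand. It shares 330 with antisense Gm15283, whose mean was 0.648 FPKM for FL and 0.185 FPKM for KO. Ndrg1 shares 419 exon bases with Gm17035 and 137 with Gm2895, and Slc2a1 105 with Gm12868, all on the other strand.

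Ankrd37 encodes an ankyrin repeat protein known mostly as a HIF-1 target. It had the lowest log2 fold change of the tested genes among the 10. Ankrd37 (chr8:45996902-46005707, minus strand) was at 28.9, 36.02, 23.9, 26.8 and 30.6 FPKM in the FL libraries, against 13.6, 14.9, 31.9, 13.5 and 13.05 FPKM in the KO libraries. The other 4 KO libraries were within 13.05 to 14.9 FPKM, and KO replicate 3 was above FL replicates 1, 3, 4 and 5. The means were 29.2 ± 4.54 FPKM for FL and 17.4 ± 8.13 FPKM for KO (SD, n = 5). On the log2 scale KO minus FL was −0.79 ± 0.22 (SE; adjusted p = 0.0226, limma), and this call did not hold without FL replicate 2 (adjusted p = 0.0515), KO replicate 1 (0.0551), KO replicate 4 (0.0562) or KO replicate 5 (0.054), without a filter (0.0523) or with the replicate block (0.0591). Without KO replicate 3 the log2 difference was −1.02 (adjusted p = 0.000109, limma). On the other strand Ankrd37 shares 349 exon bases with Lrp2bp, whose mean was 0.399 FPKM for FL and 0.471 FPKM for KO, and 57 with Ufsp2, at 52.7 and 56.7 FPKM. The 3 genes nearest to Ankrd37 in pattern over the 10 libraries were Bnip3, Pgk1 and P4ha1, at root mean square distances of 0.127, 0.163 and 0.169, where the median over all tested genes was 0.524.

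Ndrg1 encodes a cytoplasmic protein induced by hypoxia and other stresses. Ndrg1 (chr15:66929318-66969640, minus strand) was at 142, 145, 170.2, 147 and 137 FPKM in the FL libraries, against 108, 114, 111, 111 and 112 FPKM in the KO libraries. Every KO library lay below every FL library and the KO libraries lay close together. It fell from 148 ± 12.8 to 111 ± 2.44 FPKM (SD, n = 5), and limma put the log2 fold change at −0.41 ± 0.06 (SE; adjusted p = 0.000563). Ndrg1 was the single tested gene of the 8 in which KO replicate 3 was not the highest KO library, and its log2 fold change without that library was again −0.41.

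In FL islets the order of levels, which FPKM allow because they are per length, was Vegfa, Ndrg1, Bnip3, Slc2a1, Egln1, Pdk1, Hif1a, Ankrd37, Adm and Egln3. Vegfa lay above all others in every FL library. The FL ranges of Ndrg1 and Bnip3 overlapped, as did those of each further pair of neighbours down to Hif1a and Ankrd37, apart from the step between Bnip3 and Slc2a1. Adm and Egln3, at means of 0.71 and 0.536 FPKM, overlapped each other and lay far below the rest. In KO islets Hif1a, at 31.7 FPKM, had the fourth highest mean, above Egln1, Slc2a1 and Pdk1, which had been above it in FL, but its KO range overlapped theirs. Without KO replicate 3 Hif1a was at 29.0 to 32.1 FPKM in KO and still overlapped Egln1 (25.5 to 30.0 FPKM). It then lay above Slc2a1 (23.7 to 28.5 FPKM) and Pdk1 (19.3 to 24.1 FPKM).

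KO replicate 3 was the highest KO library in 7 of the 8 tested genes, where it was the highest in 26.7% of all tested genes, KO replicate 2 in 35.5% and replicates 1, 4 and 5 in 13.7%, 10.5% and 13%. It lay at or above the lowest FL library, with the other 4 KO libraries all below, in 5 of the 8 (Egln1, Bnip3, Ankrd37, Slc2a1 and Pdk1), where 3.18% of all tested genes had this arrangement. For comparison, the same arrangement with KO replicate 2 in its place occurred in 4.49% of tested genes, and with replicates 1, 4 or 5 in 0.75%, 0.52% and 0.888%. Over the whole table, KO replicate 2 therefore lay alone in or above the FL range more often than KO replicate 3, and among the 8 genes it did so in none. In the 5 genes, the KO replicate 3 value against the mean of the other 4 was 31.9 against 13.8 FPKM for Ankrd37, 133 against 71.0 for Bnip3, 42.7 against 25.6 for Slc2a1, 35.8 against 20.9 for Pdk1 and 40.7 against 27.46 for Egln1.

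**Figure D3:**
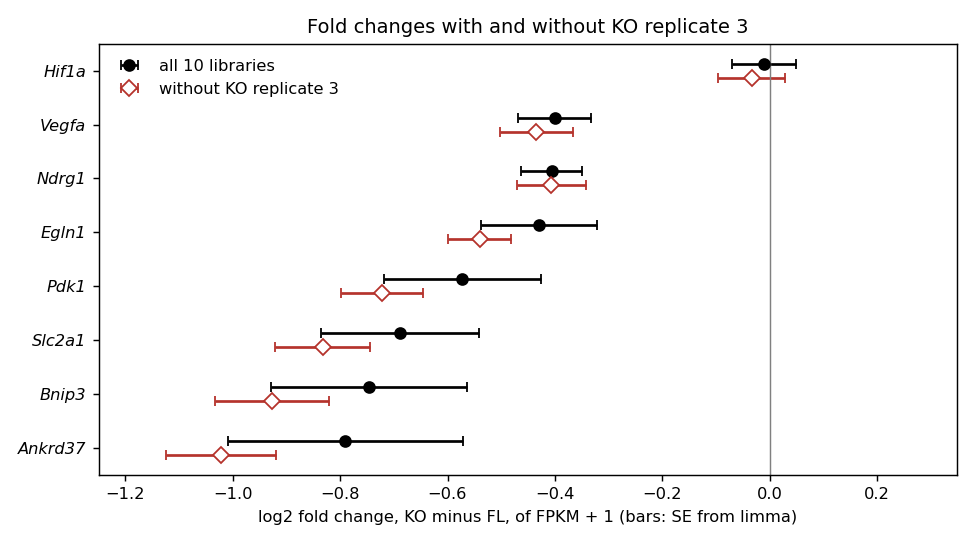
Log2 fold change (KO minus FL, of FPKM + 1; x axis) of the 8 tested genes with all 10 libraries (black) and without KO replicate 3 (red), bars showing the SE from limma. Leaving the library out took Ankrd37 from −0.79 to −1.02 and left Ndrg1 at −0.41, while Hif1a stayed near 0.

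Beyond these genes, 82 others of the HIF pathway were grouped into lists by role, and 71 were tested. In KO islets 25 were lower and 4 higher, beside 16.5% and 9.05% of all tested genes, and the median of their log2 fold changes was −0.13. The lists were chosen with earlier results of these data known, so their counts are no separate evidence of a fall. The counts without KO replicate 3 were 28 and 5, beside 16.4% and 8.65% of all genes. KO replicate 3 lay at or above the lowest FL library, with the other 4 KO libraries below, in 17 of the 71 (3.18% of all tested genes), and was the highest KO library in 37 (26.7% of all tested genes). Among the lists, the calls ran from 5 of 7 lower for dioxygenases and matrix enzymes and 11 of 19 for glucose metabolism to 0 of 7 in oxygen sensing. A further list of 8 paralogues of the genes examined was kept apart.

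**Figure D4:**
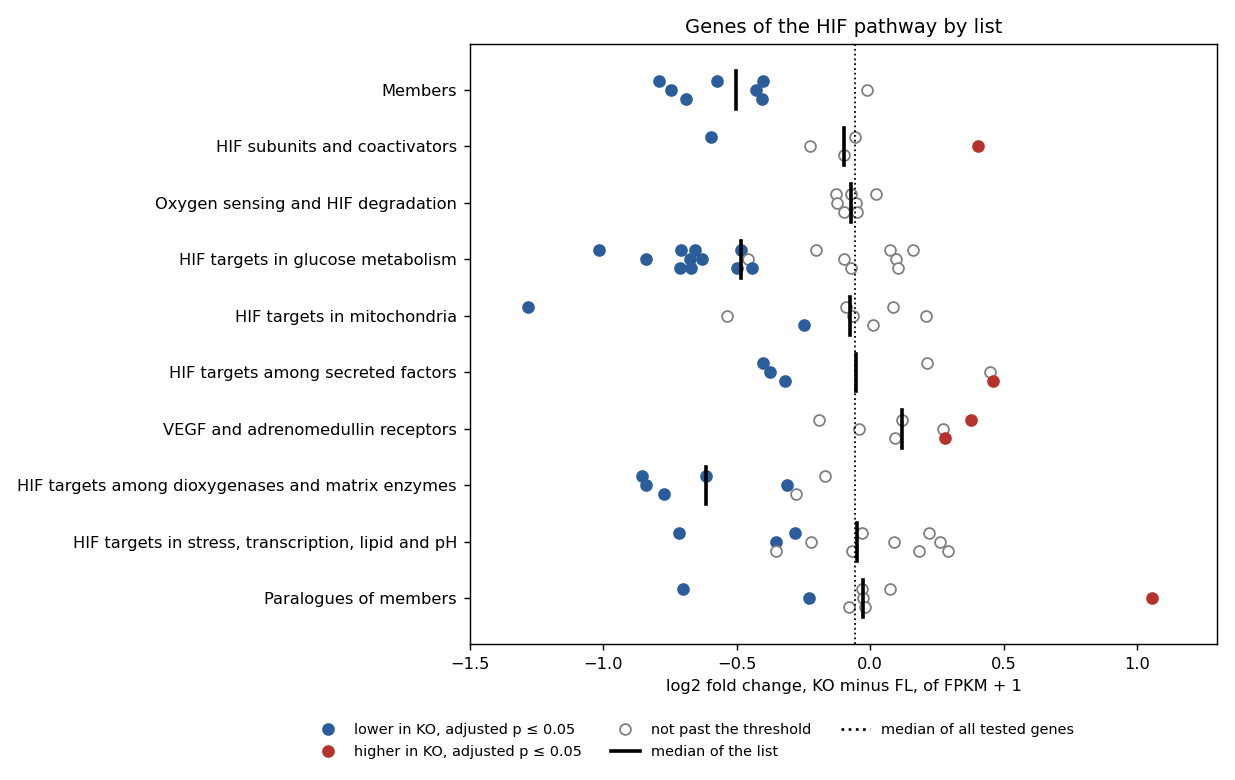
Log2 fold change (x axis, KO minus FL, of FPKM + 1) of each tested gene by list, filled blue where lower and red where higher at an adjusted p of at most 0.05, with the list's median as a black bar and the median of all tested genes dotted. The medians of glucose metabolism (−0.48), of the dioxygenase and matrix list (−0.62) and of the 8 tested genes of the 10 (−0.50) lie furthest to the left of the lists drawn.

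Among the other HIF subunits and coactivators 1 of 5 tested genes was lower and 1 higher, also without KO replicate 3, beside 16.5% and 9.05% of all tested genes. Epas1, which encodes HIF-2α and is prominent in endothelial cells, was higher in KO. It rose from 5.56 ± 0.399 to 7.69 ± 0.79 FPKM (SD, n = 5), with every KO library above every FL library, as in 6.67% of tested genes (log2 fold change 0.40; adjusted p = 0.0024, limma; 0.45 without KO replicate 3). Arnt2, a neuronal relative of Arnt, fell from 30.0 ± 5.64 to 19.8 ± 6.0 FPKM (SD, n = 5), with KO replicate 3 at 30.1 FPKM and the other KO libraries at 15.99 to 20.1 FPKM. That call (log2 fold change −0.60; adjusted p = 0.0313, limma) did not hold without FL replicate 2, 3 or 5 or KO replicate 1, 2, 4 or 5 (adjusted p from 0.052 to 0.0753) or without a filter on low values (0.0693), and without KO replicate 3 the log2 fold change was −0.75 (adjusted p = 0.0029). Arnt, the common β subunit, had a log2 fold change of −0.10 (adjusted p = 0.174), and the coactivators Crebbp and Ep300 had −0.06 (adjusted p = 0.879) and −0.23 (adjusted p = 0.125, limma). The sign for Crebbp turned to 0.10 without FL replicate 5, and Ep300 passed as lower with sample weights (adjusted p = 0.0248). Hif3a, at means of 0.0914 FPKM for FL and 0.0601 FPKM for KO, was too low to be tested with the rest. Its exact permutation test gave p = 0.302 with all libraries and 0.0317 without KO replicate 4.

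In the list of oxygen sensing and HIF degradation limma called 0 of 7 genes, also without KO replicate 3, beside 16.5% lower and 9.05% higher over all genes, and the exact Wilcoxon test 0 (12.5% and 6.67%). Without adjustment 1 was past 0.05, Rbx1 (adjusted p = 0.0725, limma). Rbx1 encodes the RING subunit of the VHL ubiquitin ligase and passed without FL replicate 3 (adjusted p = 0.0458). Egln2, the third prolyl hydroxylase, was at 44.8 ± 3.39 FPKM in FL islets and at 42.5 ± 1.92 FPKM in KO islets, and Hif1an, the asparaginyl hydroxylase that blocks coactivator binding, at 17.7 ± 0.566 and 17.1 ± 1.08 FPKM (SD, n = 5). Vhl, the substrate receptor of the ligase, was at 30.2 ± 3.35 and 27.6 ± 3.07 FPKM. The other ligase subunits Elob, Eloc and Cul2 had log2 fold changes of −0.05, −0.10 and 0.02. The sign for Elob turned under quantile normalization and that for Cul2 without FL replicate 5 or KO replicate 3. No test compared Egln1 with Egln2.

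Among HIF targets in glucose metabolism 11 of 19 tested genes fell, with log2 fold changes from −1.02 to −0.44, and 0 rose (0 without adjustment), where 16.5% of all tested genes were lower. By the exact Wilcoxon test 3 fell, beside 12.5% of all genes, and without KO replicate 3 limma called 12. Pfkl, the liver-type subunit of phosphofructokinase, fell from 109 ± 9.59 to 55.4 ± 19.3 FPKM (SD, n = 5; adjusted p = 0.0024, limma). Aldoa, the aldolase of glycolysis, fell from 1542 ± 104 to 874 ± 178 FPKM (SD, n = 5; adjusted p = 0.000562, limma). In both genes no KO library was as high as an FL library, although KO replicate 3 was the highest KO library, at 87.6 FPKM for Pfkl and 1155 FPKM for Aldoa. With it left out, the log2 fold change went from −1.02 to −1.19 for Pfkl and from −0.84 to −0.94 for Aldoa. In 9 of the 19 genes, Pgk1 among them, KO replicate 3 lay within the FL range with the other 4 KO libraries below it, as for Slc2a1 and Pdk1 and in 3.18% of all tested genes. Pgk1, which encodes a glycolytic kinase, reached 65.1 FPKM in KO replicate 3, compared with 34.8 to 41.0 FPKM in the other KO libraries and 61.2 to 80.7 FPKM in FL.

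Among mitochondrial targets 2 of 8 genes fell, where 16.5% of all tested genes did. The count without KO replicate 3 was 3, with Fam162a added (adjusted p = 0.0543 with all libraries and 0.000917 without that library, limma). Fam162a also passed with all libraries at a filter of 5 FPKM (0.048) or with sample weights (0.0191). Ak4, an adenylate kinase of the mitochondrial matrix, fell from 4.52 ± 1.42 to 1.55 ± 1.82 FPKM (SD, n = 5; log2 fold change −1.28; adjusted p = 0.0174, limma). KO replicate 3 was at 4.80 FPKM and the other 4 KO libraries at 0.605 to 0.831 FPKM, and without it the log2 fold change was −1.63 (adjusted p = 0.000127). Lonp1, a matrix protease, fell from 106 ± 5.42 to 89.6 ± 5.84 FPKM (SD, n = 5; adjusted p = 0.009, limma), and without KO replicate 3 its log2 fold change went from −0.25 to −0.27.

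Among enzymes that, as the prolyl hydroxylases, use oxygen or act on the matrix, 5 of 7 tested genes fell and 0 rose (7 and 0 without adjustment), where 16.5% of all tested genes were lower, and in all 5 the KO libraries lay below the lowest FL library (as in 12.5% of all tested genes). All 7 tested genes passed as lower without KO replicate 3. P4ha2, a subunit of collagen prolyl 4-hydroxylase, fell from 40.7 ± 6.28 to 22.3 ± 5.46 FPKM (SD, n = 5; adjusted p = 0.0018, limma), with KO replicate 3 at 32.0 FPKM and the other KO libraries at 19.5 to 20.3 FPKM. Loxl2, a lysyl oxidase, fell from 3.18 ± 0.329 to 1.34 ± 0.257 FPKM (SD, n = 5; adjusted p = 0.000121, limma), with KO replicate 3 at 1.52 FPKM, in the range of the other KO libraries (0.948 to 1.53 FPKM). On leaving out KO replicate 3 the log2 fold change went from −0.85 to −0.99 for P4ha2 and from −0.84 to −0.87 for Loxl2. The median log2 fold change of this list was −0.62.

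Among secreted targets other than Vegfa and Adm, 3 of 6 tested genes fell and 1 rose, beside 16.5% and 9.05% of all tested genes, and without KO replicate 3 it was 2 and 2. Pgf, the placental growth factor of the VEGF family, fell from 5.22 ± 0.604 to 3.78 ± 0.308 FPKM (SD, n = 5; adjusted p = 0.0054, limma). Pdgfb, a growth factor for pericytes, fell from 9.60 ± 1.22 to 7.09 ± 1.54 FPKM (adjusted p = 0.0377, limma), a call that did not hold without FL replicate 1, 2, 3 or 4 or KO replicate 1, 3 or 4 (adjusted p from 0.0556 to 0.0888), under any of the 4 rescalings (0.0621 to 0.0757), without a filter (0.0798) or with the replicate block (0.114). Angpt2, an endothelial ligand that destabilises vessels, rose from 8.25 ± 1.22 to 11.7 ± 1.98 FPKM (adjusted p = 0.0192, limma). The log2 fold change of Pgf was again −0.38 without KO replicate 3, and that of Angpt2 went from 0.46 to 0.54. Edn1 passed as higher without KO replicate 2 (adjusted p = 0.046). Epo was listed at 0 in every library. KO replicate 3 was the highest KO library in 0 of these 6 genes.

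Among receptors for VEGF and adrenomedullin 0 of 7 fell (0 without adjustment) and 2 rose, where 9.05% of all tested genes did. The count without KO replicate 3 was again 2, with Kdr in place of Ramp3. Nrp2, a VEGF co-receptor, rose from 2.88 ± 0.387 to 4.02 ± 0.282 FPKM (SD, n = 5; adjusted p = 0.0061, limma; 0.0092 without KO replicate 3). Ramp3, a partner of the adrenomedullin receptor, rose from 5.89 ± 0.65 to 7.37 ± 0.864 FPKM (adjusted p = 0.0371, limma), a call that did not hold without FL replicate 1, 3, 4 or 5 or KO replicate 3, 4 or 5 (adjusted p from 0.0522 to 0.0898), without a filter (0.0769), with sample weights (0.0752) or with the replicate block (0.0825). Kdr, the main VEGF receptor of endothelial cells, did not pass with all libraries (adjusted p = 0.0625, limma) but did without KO replicate 3 (log2 fold change 0.36; adjusted p = 0.0038), under the 4 rescalings (0.0341 to 0.0438) and with sample weights (0.027). Epas1, Angpt2 and these receptors are typical of endothelial cells, though 5 of the 7 receptors were not called. A part of such cells in these values was not tested. Of 10 endothelial markers 4 were higher in KO islets, beside 9.05% of all tested genes, and 0 at 1.5-fold or more. The receptor and marker lists share Kdr and Flt1, neither of which is among these 4. Kdr is the marker added without KO replicate 3.

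Among targets in stress, transcription, lipid and pH 3 of 12 tested genes fell and 0 rose (4 and 1 without adjustment), where 16.5% and 9.05% of all tested genes did. By the exact Wilcoxon test 0 fell. In all 3 genes KO replicate 3 lay within the FL range with the other 4 KO libraries below it (3.18% of all tested genes). Mif, a cytokine also made by β cells, fell from 317 ± 50.01 to 196 ± 56.1 FPKM (SD, n = 5; adjusted p = 0.0126, limma). Bhlhe41, a transcriptional repressor, fell from 47.2 ± 1.83 to 37.1 ± 6.60 FPKM (adjusted p = 0.0298, limma), which did not hold without FL replicate 2, 3 or 5 or KO replicate 4 or 5 (adjusted p from 0.0528 to 0.0712) or without a filter (0.0597). Leaving out KO replicate 3 gave 3 again, and the log2 fold change went from −0.72 to −0.86 for Mif and from −0.35 to −0.43 for Bhlhe41. The third gene was Cited2, which did not pass without FL replicate 5 or KO replicate 1 (adjusted p from 0.052 to 0.0552). Cited2 was named after its values were seen, as were Edn1, Kdr, Fam162a, Tfrc, Hmox1, Wsb1, Pdk2, Pdk3 and Pdk4. Tfrc (adjusted p = 0.0504, limma) passed as lower under 5 other settings (0.0288 to 0.0479) and without FL replicate 1 (0.0088). Hmox1 passed as higher under the 4 rescalings (adjusted p from 0.0259 to 0.0401), with sample weights (0.0365) and without FL replicate 4 (0.0274), and Wsb1 without KO replicate 2 (adjusted p = 0.0383).

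Of 8 paralogues of the genes examined, 2 were lower and 1 higher, also without KO replicate 3, beside 16.5% and 9.05% of all tested genes. Slc2a2, which encodes GLUT2, fell from 245 ± 34.5 to 151 ± 25.0 FPKM (SD, n = 5; adjusted p = 0.0021, limma), and KO replicate 3, at 176 FPKM, was below every FL library, unlike for Slc2a1. Ndrg3 fell from 124 ± 5.18 to 105 ± 8.16 FPKM (adjusted p = 0.0151, limma). Adm2, a peptide related to adrenomedullin and known to be induced by ER stress, rose from 18.8 ± 2.21 to 40.1 ± 5.17 FPKM (SD, n = 5; log2 fold change 1.05; adjusted p = 3.0e-05, limma), with every KO library above every FL library. The log2 fold change without KO replicate 3 was −0.76 for Slc2a2, −0.27 for Ndrg3 and 0.99 for Adm2. Among Pdk2, Pdk3 and Pdk4, the other kinases of pyruvate dehydrogenase, limma called 0, with adjusted p from 0.658 to 0.878.

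**Figure D5:**
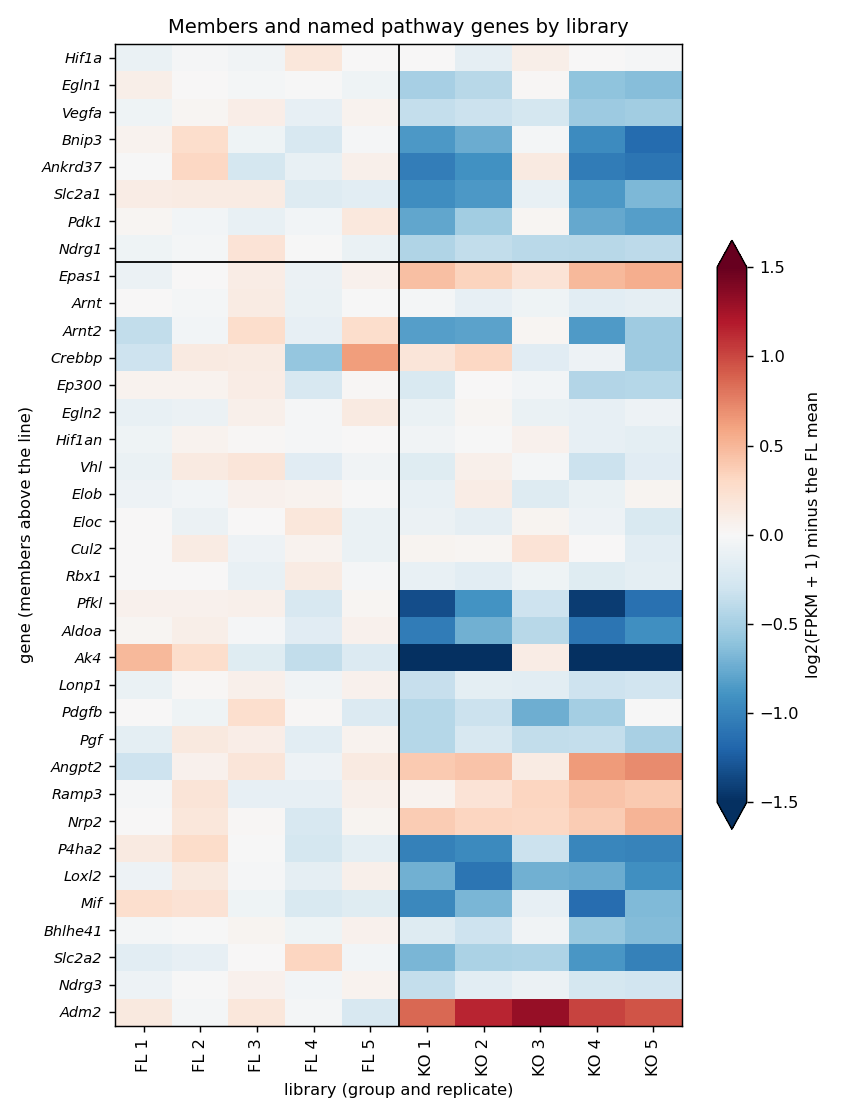
Log2(FPKM + 1) minus the FL mean for the 8 tested genes (above the line) and the pathway genes named by list (below it), by library, blue for lower and red for higher, with colours capped at 1.5 on either side. The KO 3 column is near white for Bnip3, Ankrd37, Pdk1, Egln1, Arnt2 and Ak4 and is as blue as the other KO columns for Ndrg1 and Loxl2.

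Markers of several cell types moved with genotype, and their counts stand beside 16.5% lower and 9.05% higher over all tested genes. Single markers were named after their values were seen. Without KO replicate 3 the count was the same for the β, α, δ, PP, acinar and macrophage lists. Of the β cell markers 6 of 7 tested were lower in KO, and their sum was 2273 to 2844 FPKM in FL and 1511 to 2124 FPKM in KO, the highest KO value being that of KO replicate 3. Ins1, Ins2 and Iapp of that list were at 0 in every library. Of the endothelial markers 4 of 10 were higher, with sums of 214 to 247 FPKM in FL and 236 to 310.2 FPKM in KO. The lowest KO sum was that of KO replicate 3. The count was 5 without KO replicate 3, 2 with the replicate block, 1 at an adjusted p of 0.01 and 0 at 1.5-fold or more. Under other settings it reached 6, and after median-ratio rescaling Kdr (adjusted p = 0.0409) and Esam (0.0316, limma) also passed. Plvap lost its call without FL replicate 1, 2, 4 or 5 or KO replicate 1, 2 or 5 (adjusted p from 0.0578 to 0.0699). Of the macrophage and leukocyte markers 4 of 8 were higher, with sums of 142 to 168 FPKM in FL and 202 to 241 FPKM in KO (219 FPKM in KO replicate 3). Of the mesenchymal markers 6 of 6 were higher (3 without KO replicate 1 and 4 without KO replicate 3, Col1a1 and Rgs5 each failing in 7 of the 10 fits that leave out 1 library), with sums of 18.4 to 27.1 FPKM in FL and 34.9 to 44.3 FPKM in KO (34.9 FPKM in KO replicate 3). In the last 3 lists no marker was at 0 in every library. The acinar markers had 0 of 10 called (0 without adjustment) and sums of 4465 to 11928 FPKM in FL and 2963 to 21940 FPKM in KO, with KO replicate 3 at 3128 FPKM. Of the α cell markers 2 of 7 were lower, Irx1 and Ttr, and of the δ cell markers 1 of 4, Sst, although either the 4 rescalings or no filter took these lists to 1 and 0, and leaving out single libraries to 1 to 4 and 0 to 1 (Irx1 and Sst each failed without FL replicate 1, 3, 4 or 5 or KO replicate 1, 2 or 4, while Irx2 passed without FL replicate 2 or KO replicate 5 and Gc without FL replicate 2). Of the ductal markers 1 of 6 was lower and 1 higher (2 higher without KO replicate 3, which added Spp1), and of the PP cell markers 0 of 2 were called (0 without adjustment). The part of these cell types in the results above was not tested.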

How the data were processed

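Libraries of islets from 5 FL and 5 KO mice were compared. The authors aligned reads with STAR 2.5.2a (mm10) and made gene FPKM with Cuffnorm 2.2.1, per the submitters' processing notes, and deposited 1 table of FPKM for 47340 genes, of which 22548 are at 0 throughout. Depth in reads is unknown. Coordinates came from GENCODE M21 (GRCm38), matched by identifier; promoters came from RefSeq (GRCm38.p6).

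Differences between KO and FL came from limma (version 3.58.1, under R 4.3.3; lmFit and trended eBayes) fitted to log2(FPKM + 1) of the 13065 genes averaging 1 FPKM or more in a group, with Benjamini-Hochberg adjustment over all of them and calls at an adjusted p of 0.05. Fold changes on this scale understate low genes. Adm, Egln3 and Hif3a, below the filter, had exact two-sided permutation tests over 252 splits (smallest p 0.00794). The procedure was tested on simulated data in which genes varied independently. That test does not cover a library that stands apart in many genes together, as KO replicate 3 does. Nothing states whether libraries of a group came from separate isolations beyond 1 per mouse.

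The genes examined, the lists and the markers were chosen with earlier results of these data known. By rule, all 10 genes, all HIF subunits and oxygen sensing genes, the 2 largest called rises and falls of each other list, and the 3 genes nearest in pattern to Hif1a and to Ankrd37 were named. Alternatives were other pseudocounts, filters, scalings, limma settings and thresholds, an exact Wilcoxon test, the replicate number as a block and leaving out each library. Summaries used Python 3.11.15 with numpy 2.4.6 and pandas 2.3.3, and plots matplotlib 3.10.9. The values of 1 gene of the lists are not reported here, though the counts include it.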

Additional observations from a re-analysis of the deposited data

Results flagged for a closer look

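In 12 of 88 sets of 5 libraries (each gene named by rule, in FL or in KO), 1 library was far from the other 4 by Dixon's test at the 95% level (critical value 0.71). Chance flags about 1 in 20 such sets, or 4.4 of 88, and genes are not independent. In 9 of the 12 the library was KO replicate 3 on the high side. These were Bnip3 at 133 FPKM, Adm at 1.14 FPKM, Ankrd37 at 31.9 FPKM, Slc2a1 at 42.7 FPKM, Arnt2 at 30.1 FPKM, Ak4 at 4.80 FPKM, P4ha2 at 32.0 FPKM, Pgk1 at 65.1 FPKM and P4ha1 at 102 FPKM. The first 4 belong to the 10 genes examined, and Pgk1 and P4ha1 were picked for a pattern like that of Ankrd37, so they add no separate evidence. The gap to the next KO library took up 0.9 of the KO range for Ankrd37 and 0.715 for Adm. Pdk1 and Egln1, in which KO replicate 3 was also within the FL range, did not reach the critical value. The other 3 sets were Hif3a in KO replicate 4, high at 0.144 FPKM, and Ep300 and Pfkl in FL replicate 4, low at 31.0 and 91.9 FPKM. Of 20 sets from pathway genes named after their values were seen, 2 stood out, Fam162a in KO replicate 3, high at 83.9 FPKM, and Hmox1 in KO replicate 2, high at 109 FPKM. No cause was tested for any of these.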

How the results depend on the processing

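Read depth is unknown from FPKM, which give no counting error, and Adm, Egln3 and Hif3a had FPKM near the lowest steps of the table. Of the 10 genes, 7 were called lower with all libraries, under every rescaling and with sample weights. The count was 6 without a filter or with the replicate block, and 6 to 7 with 1 library left out. It was 2 by the exact Wilcoxon test, 3 at 1.5-fold or more and 3 at an adjusted p of 0.01. Only Slc2a1 was in both of these sets of 3. By construction, the Wilcoxon test loses each gene whose groups overlap: Egln1 (adjusted p = 0.219 at −0.43), Bnip3 (0.102 at −0.75), Ankrd37 (0.219 at −0.79), Slc2a1 (0.102 at −0.69) and Pdk1 (0.151 at −0.57). Ankrd37 also lost its call without a filter (adjusted p = 0.0523) and with the replicate block (0.0591), and ranged from −1.02 to −0.71 with 1 library left out. No label says that the replicate numbers pair the libraries. Correlations of same-numbered FL and KO deviations were −0.102 to 0.003, which cannot exclude a shared litter or batch. The block gave 1494 genes lower and 874 higher and changed no other call among the 10 genes. Hif1a changed sign to 0.037 (median-ratio rescaling), 0.038 (upper-quartile), 0.048 (quantile), 0.032 (TPM) and 0.021 (sample weights) and ranged from −0.035 to 0.032 with 1 library left out; it passed under none of these. Egln3 ranged from −0.14 to 0.028 with 1 left out, Adm from −0.42 to −0.19 (passing without KO replicate 3), Crebbp from −0.20 to 0.10 and Cul2 from −0.025 to 0.066. Elob was at 0.024 under quantile normalization. Over all genes, 290 were lower and 349 higher at 1.5-fold or more, and 1044 and 622 at an adjusted p of 0.01. Of the other listed genes (27 lower and 5 higher with all libraries, paralogues included), 13 were lower and 3 higher by Wilcoxon, 16 and 1 at 1.5-fold, and 17 and 3 at an adjusted p of 0.01. The cause of each change other than the Wilcoxon losses was not tested.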
